A study of Mus musculus with 4 samples.

Results

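The genes described here are 42 genes of G2 phase and mitosis, compared between mouse embryonic stem (ES) cells that carry a fluorescent tag on p300 and wild-type ES cells of the same background. They were chosen by name: the cyclins, kinases and phosphatases that trigger mitotic entry, the mitotic kinases, the spindle checkpoint, the kinetochore, the mitotic kinesins, and the condensin and cytokinesis genes. All 42 symbols were found once each among the 54838 gene rows of the count tables, and all 42 passed the filter on low counts, which left 15191 genes for testing. The rule uses gene names and roles and no expression value, but the list was drawn up with earlier results of these data known. The knock-in cells are the line MLC460, which was made with CRISPR/Cas9 so that its own p300 protein carries mEGFP, a monomeric form of green fluorescent protein, at the N-terminal end. p300 acetylates histones and works as a coactivator at enhancers and promoters. The wild-type cells are the E14 line (E14Tg2a.4). Both come from strain 129/Ola, carry no other allele that the labels name, and were grown on gelatin in serum with leukemia inhibitory factor, the cytokine that holds mouse ES cells in self-renewal. Each line gave 2 libraries of total RNA, described as biological replicates. Only 1 knock-in line is named, so an effect of the tag and a difference between lines cannot be told apart. The comparison asks whether the tag altered gene expression, here for the genes of mitosis.

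Entry into mitosis is driven by CDK1 bound to cyclin A or cyclin B, which CDC25 phosphatases activate and which Polo-like and Aurora kinases reinforce. Condensin and topoisomerase II then compact and untangle the chromosomes, kinetochores built on CENP-A nucleosomes capture spindle microtubules, and the spindle checkpoint holds back CDC20 until every kinetochore is attached. CDC20 bound to the anaphase-promoting complex then marks securin and cyclin B for destruction, separase cuts cohesin, and the central spindle directs the cell's division. Many of these genes are transcribed together late in the cell cycle, through promoter elements called the cell cycle genes homology region (CHR) and the CCAAT box. Mouse ES cells have a short G1 phase and spend much of their cycle in S and G2. In RNA from a whole culture, a larger share of cells in G2 and mitosis and more mitotic RNA in each such cell cannot be told apart.

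The libraries held 25266051 and 18946731 counts in genes in knock-in 1 and 2, against 26553998 and 21791128 in wild-type 1 and 2, and every member had at least 341 counts in each library. Levels are TMM-scaled CPM, which relate counts to library size, and a positive log2 fold change means a higher level in knock-in cells. The 10 ES cell markers, among them Pou5f1, Sox2 and Nanog, summed to 6968 and 6538 CPM in the knock-in libraries and 6373 and 6450 CPM in the wild-type libraries. The RNA of the tagged gene, Ep300, stood at 181 and 210.4 CPM in knock-in 1 and 2, against 209 and 210.0 CPM in wild-type 1 and 2 (log2 fold change -0.10, SE 0.15, edgeR adjusted p = 0.804). The insert itself is not in the annotation used, so these counts do not check the labels. Wild-type 2 stood apart from the other 3 libraries: its values were lower than theirs in AT-rich transcripts and higher in GC-rich ones, and its mitochondrial share of counts was 0.589%, with 1.04% to 1.27% elsewhere. Because the members are richer in A and T than most tested genes (median GC content of the longest transcript 46.2%, against 50% over all tested genes), results below are set side by side in 3 edgeR fits. The fits are all 4 libraries as they stand, all 4 libraries with an offset that removes each library's trend with transcript GC content, and 3 libraries without wild-type 2. The offset would also remove any genuine trend with GC content between the lines. In the fit without wild-type 2 the lone wild-type library is assumed to vary as the knock-in pair does.

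No member changed between the lines at an adjusted p under 0.05 in the edgeR quasi-likelihood fit of all 4 libraries, where 0.0658% of all tested genes passed in either direction, or in the fit with the GC offset, where 1.18% passed. DESeq2 called none of the 42 either, with 0.63% of all genes called. The lowest adjusted p among them was 0.424 for Kif11 without the offset and 0.129 for Nuf2 with it. At an unadjusted p under 0.05, 5 members were higher and 0 lower with all libraries, against 3.54% of all genes higher and 7.4% lower. With the GC offset 13 were higher and 0 lower, against 10.7% and 6.94% of all genes. Ndc80, Nuf2, Kif11 and Nusap1 were in both counts. Once wild-type 1 was left out, so that wild-type 2 alone stood for wild-type cells, 24 members passed as higher, with 19% of all genes. With the GC offset added, 8 did, with 6% of all genes.

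The log2 fold changes of the 42 genes were small and mostly above 0. They were above 0 in 40 of 42 genes with all libraries, in 39 with the GC offset and in 38 without wild-type 2, against 50.1%, 58.6% and 48.2% of all genes tested in those fits. The share of all genes with all libraries depended on GC content. Within the GC bounds of the 14 members of lowest, middle and highest GC content it was 84.5%, 67.4% and 39.1%. In the same groups 14, 14 and 12 members were above 0. The members' median was 0.24 with all libraries, 0.20 with the GC offset and 0.11 without wild-type 2, and the same medians over all 15191 genes were 0.00098, 0.058 and -0.0094. The sign was positive in all 3 fits in 34 genes, and the other 8 were Ccnb1, Cdc25b, Aurkb, Bub1, Bub3, Cenpf, Kif23 and Ncapg. Both knock-in libraries lay above both wild-type libraries in 29 of the 42 genes, against 23.4% of all genes, and below both in 1 gene, Cdc25b, against 23.9% of all genes. On GC-corrected CPM, in which each library's GC trend is taken out, both knock-in libraries were higher in 33 genes, against 31.6% of all genes, and lower in none of the 42, against 18.6%. In 24 genes they were higher on both scales, against 18.6% of all genes. The log2 fold changes of all members in the 3 fits are drawn with their standard errors in the plot of fold changes.

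**Figure D1:**
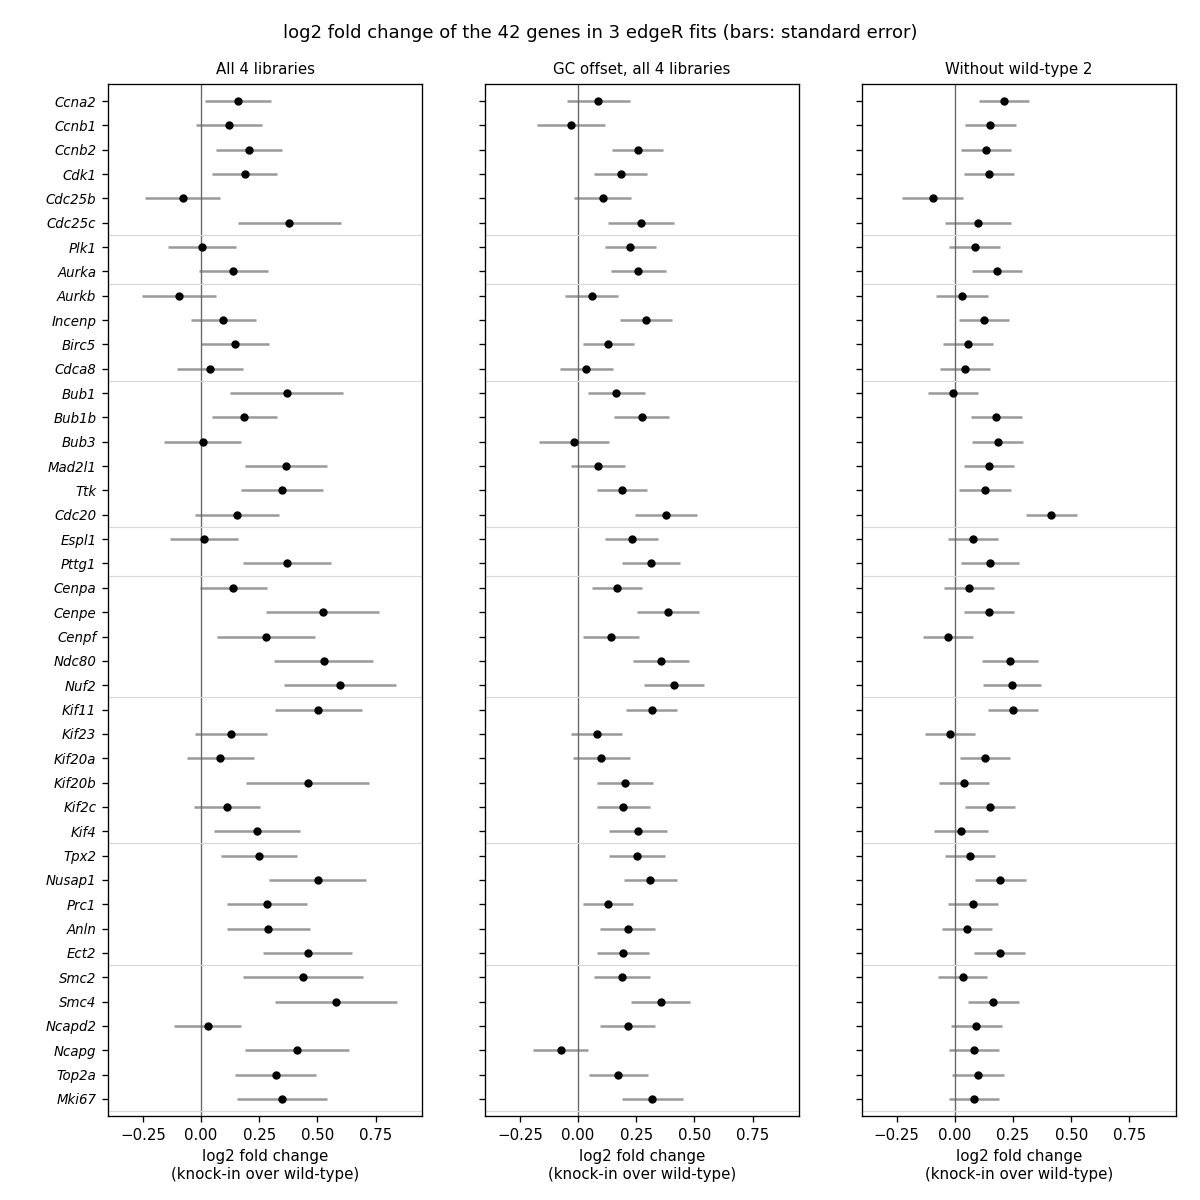
log2 fold change of knock-in over wild-type (x axis) for each of the 42 genes (rows, in role groups separated by lines) in 3 edgeR fits, with points for estimates and bars for standard errors. The members' median is 0.24 with all libraries, 0.20 with the GC offset and 0.11 without wild-type 2.

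The 2 knock-in libraries lay close together and the 2 wild-type libraries did not. The median gap between replicates was 0.053 on the log2 CPM scale in knock-in cells, with the widest gap at 0.17 for Aurka, against a median of 0.42 in wild-type cells, with the widest at 0.97 for Kif20b. After GC correction the median gaps were 0.070 in knock-in and 0.18 in wild-type cells. Wild-type 2 was the lowest of the 4 libraries in 27 members and the highest in 6, and knock-in 1 was the highest in 22. Over all tested genes with counts in every library, wild-type 2 was the most often lowest (5659 genes) and the most often highest (5067 genes). Knock-in 1 was the highest there in 3336 genes. Summed over the 42 genes, CPM came to 9288 and 9234 in knock-in 1 and 2, against 8429 and 7422 in wild-type 1 and 2. The same sums on GC-corrected CPM were 9273 and 8960 in the knock-in libraries and 7895 and 8052 in the wild-type libraries. Both knock-in sums were the higher on either scale, but so were those over all tested genes with counts in every library. Those came to 1036470 and 1013220 CPM in knock-in 1 and 2, against 963283 and 988476 CPM in wild-type 1 and 2. On GC-corrected CPM they were 1062300 and 1013630, against 917951 and 996571. Marker genes of other cell types that such a culture could hold summed to 22.4 and 24.1 CPM in knock-in and 36.3 and 39.4 CPM in wild-type libraries for 10 fibroblast and feeder genes, of which 2 (Lum and Twist2) were at 0 in all libraries and 7 stayed under 1 CPM in every library. For 10 primitive endoderm genes the sums were 231 and 254 CPM in knock-in and 385 and 425 CPM in wild-type libraries, with none of the 10 at 0 in every library and 2 under 1 CPM throughout. Most of those sums came from 3 basement membrane genes that are not specific to endoderm. Lama1 had 150.2 and 171 CPM in the knock-in libraries, against 210.3 and 259.8 CPM in the wild-type libraries. Col4a1 had 53.3 and 53.9 CPM in the knock-in libraries, against 118 and 111 CPM in the wild-type libraries, and Col4a2 had 17.9 and 21.1 CPM in the knock-in libraries, against 47.0 and 44.5 CPM in the wild-type libraries. With the GC offset both collagen genes passed as lower (edgeR adjusted p = 0.00389 and 0.00438), where 1.18% of all genes passed in either direction. With all libraries as they stand neither did (edgeR adjusted p = 0.0554 and 0.0604), and Lama1 passed in neither of these fits. Without wild-type 2 the log2 fold changes were -0.41 for Lama1, -1.15 for Col4a1 and -1.29 for Col4a2, again lower in knock-in cells. The more specific markers Gata4, Gata6, Sox7, Pdgfra and Dab2 stood between 0.944 and 3.31 CPM in every library, and each overlapped between the lines. The trophoblast (8 genes), neuroectoderm (6 genes) and mesoderm (6 genes) lists summed to 73.5 and 70.9, 162 and 149, and 2.63 and 2.25 CPM in the knock-in libraries, against 60.9 and 67.1, 149 and 235, and 2.80 and 3.18 CPM in the wild-type libraries, with Pax3 and Hand2 at 0 in all of them. Most of the trophoblast sums came from Tfap2c (47.4 and 44.7 CPM in knock-in, 34.2 and 34.9 CPM in wild-type libraries). It passed as higher with the GC offset (edgeR adjusted p = 0.0338) but not with all libraries (edgeR adjusted p = 0.430). Eomes went the other way (6.61 and 6.58 CPM in knock-in, 9.92 and 8.58 CPM in wild-type libraries) and passed in neither fit. Tubb3 made up most of the neuroectoderm sums, with 205 CPM in wild-type 2 and 117 to 133 CPM elsewhere. The part of these other cell types in the members' differences was not tested.

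**Figure D2:**
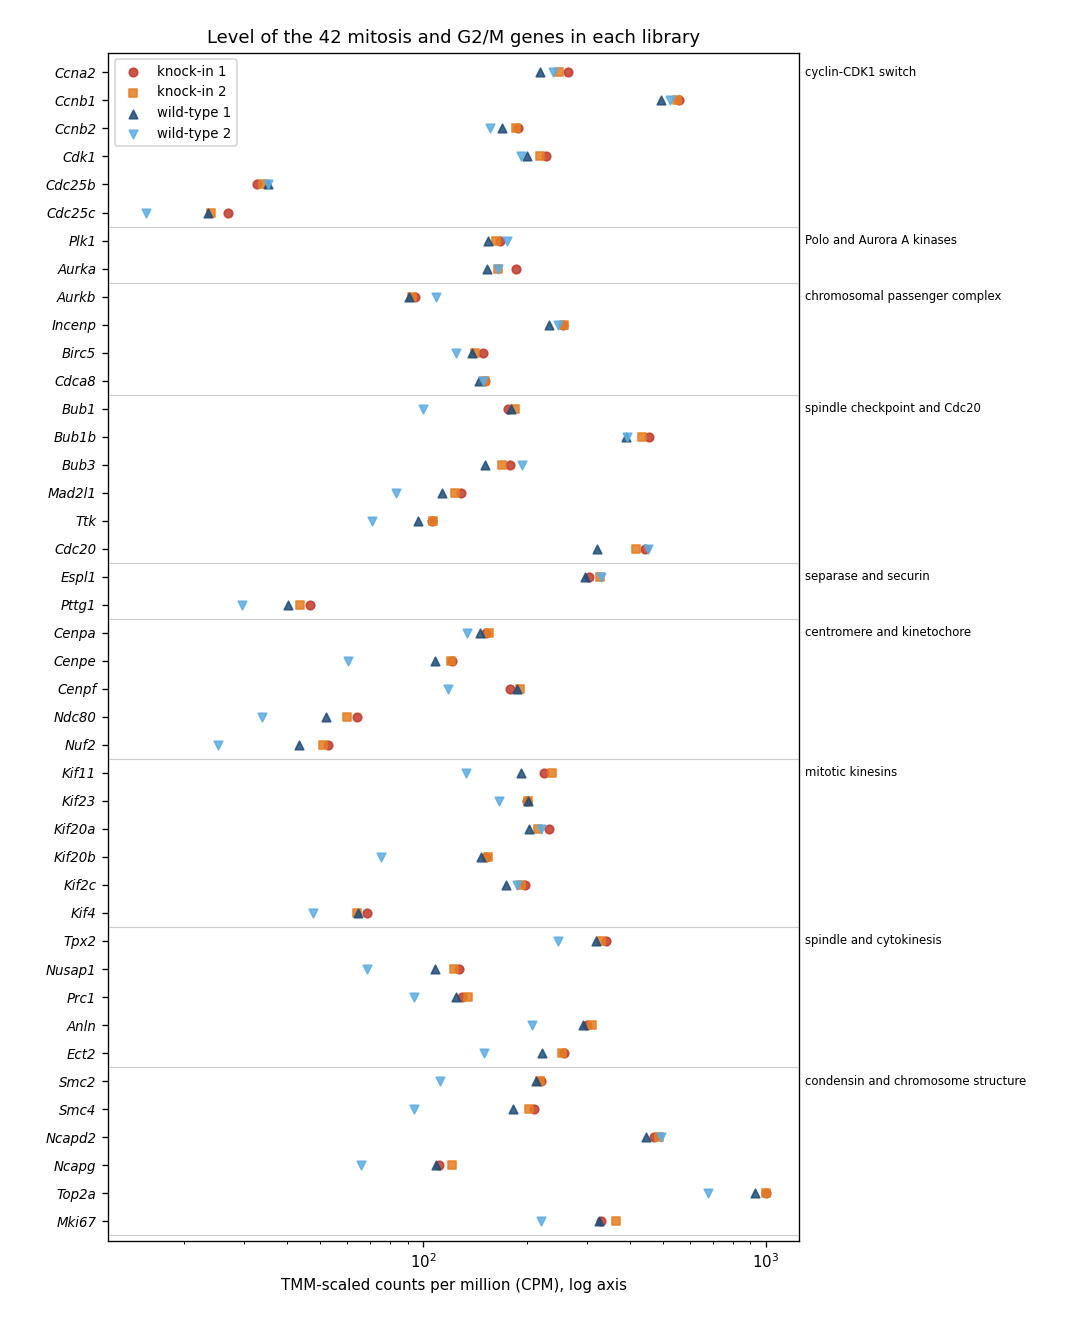
Level of each of the 42 genes (rows, in role groups) in TMM-scaled CPM on a log axis, with 1 symbol for each library. In 27 genes wild-type 2 is the lowest of the 4 libraries, and the 2 knock-in libraries nearly coincide in most rows.

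The cyclin and CDK1 genes, which throw the switch into mitosis, numbered 6, of which none passed the edgeR test. Both knock-in libraries lay above both wild-type libraries in 5 of them, all but Cdc25b, against 23.4% of all genes, and in 4 on GC-corrected CPM, against 31.6%. Ccnb1 encodes cyclin B1, the main partner of CDK1 at mitotic entry. It had 558 and 548 CPM in knock-in 1 and 2, against 493 and 524 CPM in wild-type 1 and 2. Both knock-in values were above both wild-type values, yet the estimate of 0.12 (SE 0.14, edgeR adjusted p = 0.748) became -0.031 with the GC offset. Cdk1, the kinase itself, had 228 and 219.6 CPM in the knock-in libraries, against 200.1 and 193 CPM in the wild-type libraries, a log2 fold change of 0.19 that stayed at 0.18 with the GC offset and 0.15 without wild-type 2. The values for Ccnb2 (cyclin B2) were 0.21, 0.26 and 0.13 in the same order of fits, and those for Ccna2 (cyclin A2) were 0.16, 0.088 and 0.21. Of the CDC25 phosphatases that remove the inhibitory phosphates from CDK1, Cdc25c had 26.9 and 23.9 CPM in the knock-in libraries, against 23.5 and 15.5 CPM in the wild-type libraries, with the low value in wild-type 2. Its log2 fold change was the largest of the group, 0.38 (SE 0.22, edgeR adjusted p = 0.519). Leaving out wild-type 2 gave 0.10. Cdc25b had 32.6 and 34.0 CPM in the knock-in libraries, against 35.2 and 35.1 CPM in the wild-type libraries, so all 4 libraries lay close together. It was the only one of the 42 with both knock-in libraries below both wild-type libraries, and its log2 fold change of -0.079 was 0.11 with the GC offset.

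Plk1, the Polo-like kinase that promotes mitotic entry and spindle assembly, stood at 168 and 163 CPM in knock-in 1 and 2, against 154 and 175 CPM in wild-type 1 and 2. The groups overlapped, with wild-type 1 the lowest and wild-type 2 the highest library. The log2 fold change was 0.0052 with a 95% interval of -0.33 to 0.34, and 0.22 with the GC offset (edgeR adjusted p = 0.308). Aurka encodes Aurora A, which acts at centrosomes and spindle poles. It had 186 and 165 CPM in the knock-in libraries, against 153 and 165 CPM in the wild-type libraries, a log2 fold change of 0.14 (SE 0.15) that was 0.26 with the GC offset. Both kinase genes are GC-rich for this set (56.0% and 51.4%), and both were among the genes whose log2 fold change was larger with the offset than without it.

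The chromosomal passenger complex joins the kinase Aurora B to INCENP, survivin (Birc5) and borealin (Cdca8), and corrects faulty attachments at the centromere. Its 4 subunits did not differ detectably between the lines in the edgeR test. Incenp, the scaffold, had 255 and 256 CPM in the knock-in libraries, against 232 and 247 CPM in the wild-type libraries. The knock-in values were nearly equal and above both wild-type values, with a log2 fold change of 0.10 and, with the GC offset, 0.29 (SE 0.11, edgeR adjusted p = 0.208). Birc5 had 149 and 142 CPM in the knock-in libraries, against 139 and 125 CPM in the wild-type libraries, a log2 fold change of 0.14 that was 0.057 without wild-type 2. Aurkb, the kinase subunit, had 94.5 and 92.7 CPM in the knock-in libraries, against 90.8 and 109 CPM in the wild-type libraries. Wild-type 2 was its highest library and the other 3 lay within a narrow range, and the log2 fold change of -0.10 became 0.058 with the GC offset and 0.029 without wild-type 2. Cdca8 was nearly level at 0.038, 0.036 and 0.043 in the 3 fits. Per kb of exon, the mean levels over the 4 libraries were 57.2 CPM for Incenp, 40.8 for Birc5, 32.9 for Aurkb and 28.9 for Cdca8.

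The spindle checkpoint genes did not pass the edgeR test with all libraries, and wild-type 2 was the lowest library for Bub1, Mad2l1 and Ttk but the highest for Bub3 and Cdc20. Bub1b, which encodes BUBR1, a part of the checkpoint complex that binds CDC20, had 455 and 433 CPM in knock-in 1 and 2, against 389 and 393 CPM in wild-type 1 and 2. The wild-type pair was nearly equal and the knock-in pair lay above it, with an estimate of 0.19 (SE 0.14, edgeR adjusted p = 0.608), 0.27 with the GC offset and 0.18 without wild-type 2. Bub1, the kinase that recruits checkpoint proteins and shugoshin to kinetochores, had 176 and 185 CPM in the knock-in libraries, against 180.2 and 99.9 CPM in the wild-type libraries. Wild-type 2 alone was low there, and the log2 fold change of 0.37 was -0.0086 without that library. Bub3, the adaptor that places BUB1 and BUBR1 at kinetochores, had 179 and 169 CPM in the knock-in libraries, against 152 and 195 CPM in the wild-type libraries, with wild-type 2 as the highest library. Its log2 fold change was 0.0064 with all libraries, -0.016 with the GC offset and 0.18 without wild-type 2. Mad2l1 (MAD2) and Ttk (the checkpoint kinase MPS1) had values of 0.37 and 0.35 with all libraries, and 0.15 and 0.13 without wild-type 2.

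Cdc20, the activator of the anaphase-promoting complex that the checkpoint restrains, was the most abundant of the 42 genes per kb of exon (chr4:118432901-118437352 on GRCm38, minus strand). It is described at length here after its values were seen. It had 444 and 417 CPM in knock-in 1 and 2, against 320.0 and 453 CPM in wild-type 1 and 2. The wild-type libraries thus lay on either side of the knock-in pair, and the log2 fold change was 0.15 (SE 0.18, edgeR adjusted p = 0.751). On GC-corrected values it had 483 and 443 GC-corrected CPM in knock-in 1 and 2, against 316 and 396 in wild-type 1 and 2, which left both knock-in libraries higher, and the estimate was 0.38 (SE 0.13, edgeR adjusted p = 0.175). In the fit without wild-type 2, Cdc20 was the only one of the 42 to pass as higher (0.41, SE 0.11, edgeR adjusted p = 0.00770), where 0.711% of all genes passed as higher. With wild-type 2 as the lone wild-type library, the estimate was -0.074.

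Securin (Pttg1) holds separase (Espl1) inactive until anaphase. Espl1 had 304 and 327 CPM in knock-in 1 and 2, against 296 and 329.5 CPM in wild-type 1 and 2. Both knock-in values lay within the range of the wild-type values, with a log2 fold change of 0.012 (SE 0.15, 95% interval -0.32 to 0.34). With the GC offset it was 0.23, again short of the threshold. Pttg1 had 46.7 and 43.6 CPM in the knock-in libraries, against 40.3 and 29.6 CPM in the wild-type libraries, with wild-type 2 well below the rest. The log2 fold change of Pttg1 was 0.37 with all libraries, 0.32 with the GC offset and 0.15 without wild-type 2.

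The kinetochore genes had the highest median log2 fold change of any role group with all libraries, 0.52 over 5 genes, against 0.00098 over all tested genes, and none passed the edgeR test. That median was 0.36 with the GC offset, again the highest, and 0.15 without wild-type 2, below the 0.16 of the spindle checkpoint and Cdc20 genes. The group is AT-rich, with a median GC content of 42.9%. All tested genes of 34.8% to 43.3% GC content had medians of 0.29, 0.053 and 0.044 in the 3 fits. Nuf2 encodes a subunit of the NDC80 complex, which binds spindle microtubules at the outer kinetochore. It had 52.8 and 51.1 CPM in knock-in 1 and 2, against 43.4 and 25.1 CPM in wild-type 1 and 2 (chr1:169497934-169531464, minus strand). Its log2 fold change was the largest of the 42, 0.60 (SE 0.24, edgeR adjusted p = 0.435), and it was 0.41 with the GC offset and 0.25 without wild-type 2. Ndc80, its partner in the same complex, had 64.1 and 59.7 CPM in the knock-in libraries, against 52.0 and 33.7 CPM in the wild-type libraries, and values of 0.53, 0.36 and 0.24 in the 3 fits. Both genes had the same order of libraries, with knock-in 1 the highest and wild-type 2 the lowest, and both had knock-in values above wild-type 1 as well as wild-type 2. Cenpa encodes the histone H3 variant that marks the centromere. It had 153 and 155 CPM in the knock-in libraries, against 146 and 134 CPM in the wild-type libraries, a log2 fold change of 0.14 that was the smallest of the group. Cenpf, a large coiled-coil protein of the outer kinetochore, had 179 and 192 CPM in the knock-in libraries, against 187 and 118 CPM in the wild-type libraries, and the log2 fold change of 0.28 was -0.028 once wild-type 2 was left out. Cenpe, the kinetochore kinesin that carries chromosomes to the spindle equator, had 0.52, 0.39 and 0.15 in the 3 fits.

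Among the 6 mitotic kinesins the log2 fold changes were all above 0 with all libraries and with the GC offset. Kif11 encodes the EG5 motor that pushes the spindle poles apart. It had 224 and 237 CPM in knock-in 1 and 2, against 192 and 133 CPM in wild-type 1 and 2. Both knock-in values were above both wild-type values, the log2 fold change was 0.50 (SE 0.19, edgeR adjusted p = 0.424), and the values in the other fits were 0.32 with the GC offset and 0.25 without wild-type 2. Kif20a encodes MKLP2, which brings the passenger complex to the central spindle. It had 232 and 217 CPM in the knock-in libraries, against 203 and 220.2 CPM in the wild-type libraries, an overlap of the groups with a log2 fold change of 0.083. Of its exon bases 29.3% also lie in Cdc23 on the opposite strand, and counts without strand give reads from these to neither gene. Kif20b, a motor that acts in cytokinesis, had 152 and 154 CPM in the knock-in libraries, against 147 and 75.1 CPM in the wild-type libraries, and wild-type 2 alone was far below the other 3 libraries. Its log2 fold change was 0.46 with all libraries and 0.040 without wild-type 2. The microtubule depolymerase Kif2c (MCAK), the central spindle motor Kif23 (MKLP1) and the chromokinesin Kif4 had log2 fold changes of 0.11, 0.13 and 0.24, and of 0.15, -0.021 and 0.026 without wild-type 2.

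In the 5 spindle and cytokinesis genes both knock-in libraries lay above both wild-type libraries in every case, on CPM (against 23.4% of all genes) and on GC-corrected CPM (against 31.6%), and none passed the edgeR test. Tpx2, which activates Aurora A on spindle microtubules, had 342 and 331 CPM in the knock-in libraries, against 318 and 248 CPM in the wild-type libraries. Its log2 fold change was 0.25 (SE 0.16), 0.25 with the GC offset and 0.065 without wild-type 2. Nusap1, which bundles spindle microtubules near chromatin, had 127 and 123 CPM in the knock-in libraries, against 108 and 68.6 CPM in the wild-type libraries, with values of 0.50, 0.31 and 0.20 in the 3 fits. Wild-type 1 lay between the knock-in pair and wild-type 2. The RhoA activator Ect2, which sets the cleavage plane, had 0.46, 0.19 and 0.19. The microtubule bundler of the central spindle, Prc1, and the cleavage furrow scaffold anillin (Anln) had 0.28 and 0.29 with all libraries, and 0.078 and 0.051 without wild-type 2.

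Of the 4 condensin genes, Smc2, Smc4 and Ncapg are AT-rich and Ncapd2 is GC-rich, and none passed the edgeR test. Smc2 and Smc4 encode the paired ATPase arms of condensin, while Ncapd2 and Ncapg encode subunits of condensin I. Smc4 had 209.7 and 204 CPM in knock-in 1 and 2, against 183 and 94.0 CPM in wild-type 1 and 2. Wild-type 2 lay far below the other 3 libraries, and the estimate was 0.58 (SE 0.26, edgeR adjusted p = 0.459), which was 0.35 with the GC offset and 0.17 without that library. Ncapd2 had 472 and 486 CPM in the knock-in libraries, against 445 and 494 CPM in the wild-type libraries, with wild-type 2 as the highest library and a log2 fold change of 0.028 (95% interval -0.29 to 0.35). Both knock-in libraries of Ncapd2 were higher on GC-corrected CPM, with 0.21 in that fit. Smc2 had 0.44 with all libraries and 0.033 without wild-type 2. Ncapg, the most AT-rich of the 42, had 0.41 with all libraries and -0.075 with the GC offset. Top2a, topoisomerase II alpha, which untangles sister chromatids, had 1002 and 1003 CPM in the knock-in libraries, against 928 and 678 CPM in the wild-type libraries. The knock-in libraries were all but equal, and the log2 fold change was 0.32 (SE 0.17), 0.17 with the GC offset and 0.10 without wild-type 2. Mki67, the proliferation marker Ki-67 that coats mitotic chromosomes, had 0.35, 0.32 and 0.083.

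The members' log2 fold changes followed transcript GC content. Across the 42 genes Spearman's rho between the log2 fold change and GC content was -0.85 (Pearson r -0.82) with all libraries, 0.025 with the GC offset and -0.097 without wild-type 2. Across all tested genes the rho was -0.48, 0.0083 and -0.097 in the same order of fits. The value near 0 with the offset follows from the offset itself, which takes out each library's GC trend over all tested genes. These correlations are across genes measured in the same 4 libraries, and the genes are not independent replicates. The deviation of wild-type 2 from the mean of the other 3 libraries had a median of -0.44 on the log2 scale over the members and ran from -1.08 in Smc4 to 0.24 in Aurkb. It followed GC content with a rho of 0.89, against 0.65 over all tested genes. In the 14 members of lowest GC content (34.8% to 43.3%) wild-type 2 was the lowest library in all 14, in the next 14 (43.3% to 47.9%) it was lowest in 10, and in the 14 of highest GC content (48.1% to 56.1%) in 3. The median log2 fold change of these groups was 0.46, 0.22 and 0.10, against 0.29, 0.12 and -0.070 over all tested genes within the same bounds of GC content. With the GC offset the medians were 0.20, 0.15 and 0.23 for the members and 0.053, 0.053 and 0.063 for all genes. Without wild-type 2 they were 0.15, 0.090 and 0.11 for the members and 0.044, 0.0014 and -0.025 for all genes.

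**Figure D3:**
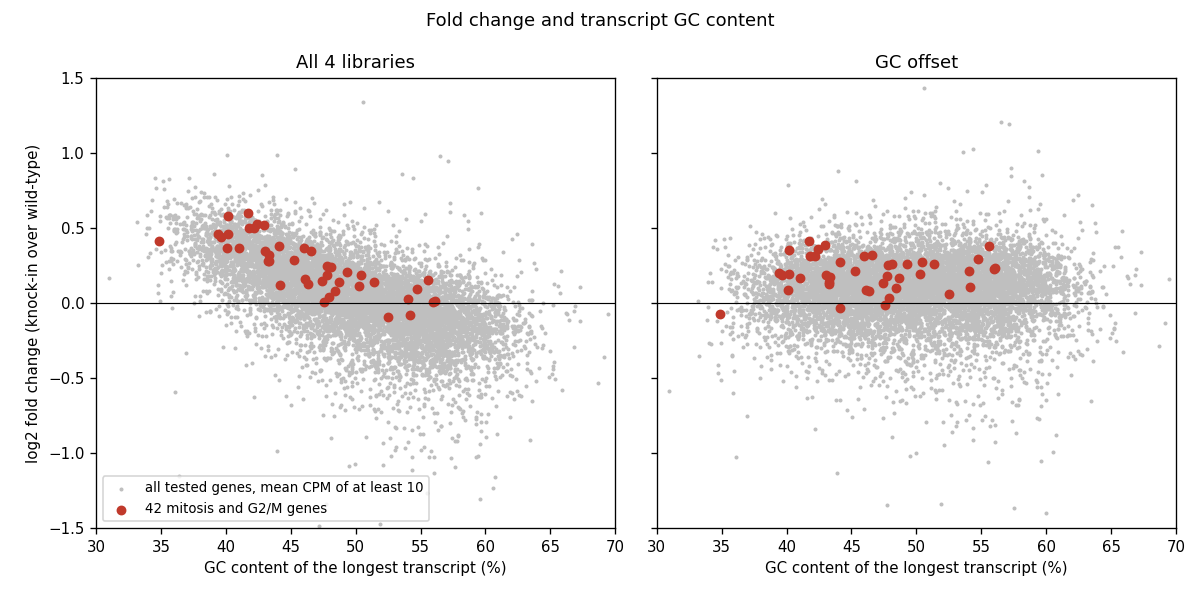
log2 fold change of knock-in over wild-type (y axis) against the GC content of the longest transcript (x axis, percent) for the 42 members (red) and all 8948 tested genes with a mean of at least 10 CPM (grey), with all 4 libraries (left) and with the GC offset (right); 6 genes lie beyond the y axis in each panel. The members follow the downward slope of the other genes on the left and lie mostly above 0 without a slope on the right.

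The contrast in base composition can be read in the coding sequences themselves. The stretches of 150 coding bases below come from the GENCODE M21 transcripts, were picked to have a GC content close to that of their whole transcript, and are numbered from the first base of the start codon, with G and C in capitals. Smc4 and Kif20b are AT-rich genes in which wild-type 2 was far below the other libraries, and Espl1 and Plk1 are GC-rich genes in which it was the highest.
Smc4, coding bases 280 to 429: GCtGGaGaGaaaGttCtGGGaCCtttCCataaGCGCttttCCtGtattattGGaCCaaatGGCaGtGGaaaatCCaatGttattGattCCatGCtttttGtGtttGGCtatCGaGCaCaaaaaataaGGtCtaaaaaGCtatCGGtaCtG
Kif20b, coding bases 64 to 213: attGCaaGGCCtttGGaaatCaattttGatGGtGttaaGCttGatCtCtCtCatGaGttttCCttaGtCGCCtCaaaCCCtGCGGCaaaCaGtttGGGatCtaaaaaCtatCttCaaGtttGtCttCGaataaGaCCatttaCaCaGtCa
Espl1, coding bases 25 to 174: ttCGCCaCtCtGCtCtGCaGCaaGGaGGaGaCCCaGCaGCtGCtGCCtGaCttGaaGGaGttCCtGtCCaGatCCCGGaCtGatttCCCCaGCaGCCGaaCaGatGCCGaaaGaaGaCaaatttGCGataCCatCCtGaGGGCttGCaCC
Plk1, coding bases 115 to 264: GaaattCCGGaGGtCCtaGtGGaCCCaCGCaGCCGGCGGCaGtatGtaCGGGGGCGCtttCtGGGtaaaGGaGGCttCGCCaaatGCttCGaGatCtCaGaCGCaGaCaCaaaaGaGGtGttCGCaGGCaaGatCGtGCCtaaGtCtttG
The GC content of these stretches was 40.0%, 39.3%, 56.0% and 56.0%, and the log2 fold changes of the genes, with all libraries, were 0.58, 0.46, 0.012 and 0.0052. With the GC offset they were 0.35, 0.20, 0.23 and 0.22.

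**Figure D4:**
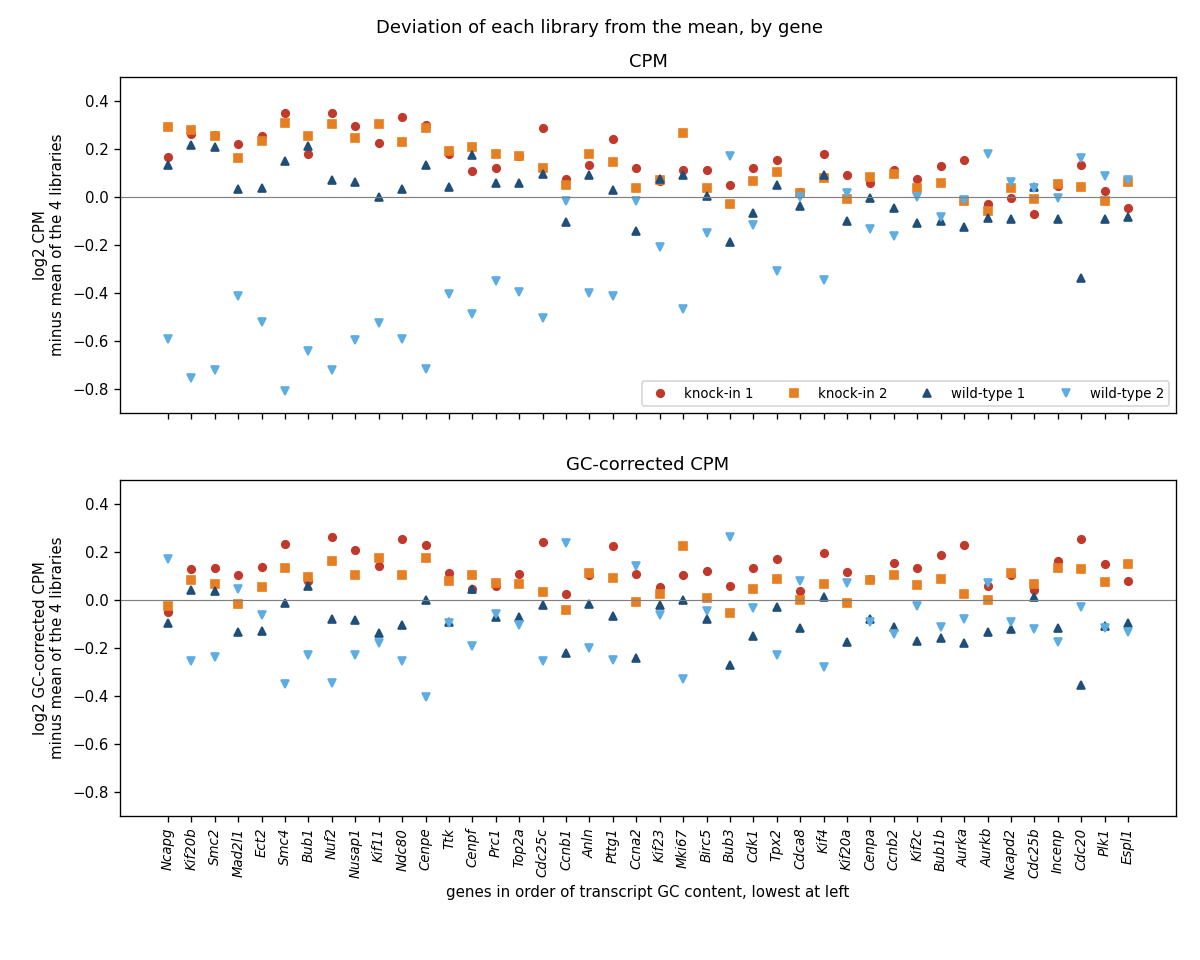
Deviation of each library from the mean of the 4 libraries (y axis, log2) for each of the 42 genes in order of GC content (x axis), on CPM (top) and GC-corrected CPM (bottom). On CPM wild-type 2 is the lowest library in the 14 genes of lowest GC content, and on GC-corrected CPM the knock-in libraries are both higher than both wild-type libraries in 33 genes.

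The 42 genes spanned a wide range of abundance. Levels per kb of exon, which allow genes to be set side by side, were highest for Cdc20, at 230.4 ± 10.2 CPM per kb in knock-in and 207 ± 50.5 CPM per kb in wild-type cells (SD, n = 2 each). Next came Ccnb1 at 131 ± 1.60 CPM per kb in knock-in and 121 ± 5.28 CPM per kb in wild-type cells (SD, n = 2 each), Ccnb2 at 114, Top2a at 100.2 and Bub1b at 97.7 CPM per kb over the 4 libraries. Cdc20 lay above Ccnb1 in every library, and Ccnb1 lay above Ccnb2, and Ccnb2 above Top2a, in every library. At the other end stood Cdc25c at 5.16 ± 0.420 CPM per kb in knock-in and 3.96 ± 1.15 CPM per kb in wild-type cells (SD, n = 2 each), below Nuf2 at 6.80, Ndc80 at 8.07 and Cdc25b at 9.19 CPM per kb. Nuf2 lay below Ndc80 in every library. The length used joins all annotated exons, so a gene with annotated exon bases that ES cells do not use would read low on this scale. This may hold for genes of long joined length, such as Mad2l1 (8390 bp), but which exons were used was not tested. In 13 members some exon bases also lie in another annotated gene, and the share was over 10% in 6: Kif20a, Kif4 (15.1%, Pdzd11), Ncapg (13.4%, Lcorl), Cdc25c (12.7%, Gm3550), Ccna2 (12.5%, Exosc9) and Prc1 (11.1%, Rccd1). In counts without strand, reads from such shared bases go to neither gene but to a summary row, which held 5.96% to 6.38% of reads. The counts and levels per kb of these genes may thus read low.

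The choice by name did not use promoter motifs, but many genes with these roles are known to be transcribed through the CHR and the CCAAT box. The counts below thus describe the members and are not independent support for the list. RefSeq promoter windows (GRCm38.p6, 250 bases before to 50 after the start) were on hand for 35 of the 42 genes; those without one were Ccna2, Cdc25c, Aurkb, Incenp, Kif20a, Tpx2 and Smc4. On either strand a CHR, searched as TTTGAA or TTCGAA, stood in 28 of the 35 windows (80.0%), against 19.4% of all 27025 windows and 13.6% of the windows of tested genes. CCAAT stood in 26 (74.3%), against 37.9% of all windows, and both motifs in 24 (68.6%), against 7.70%. Within 50 bases of the start a CHR was found in 25 of the 35 (71.4%), against 5.29% of all windows. The E2F-like word TTCCCGC, typical of genes of the G1 to S transition, was found in 1 window, that of Ncapg (2.86%). It was in 4.66% of all windows and in 8.71% of the windows of tested genes. The further genes of the same processes described below, of which 90 had a window, differed from the members. A CHR stood in 46.7% of their windows, both motifs in 31.1% and TTCCCGC in 18.9%. Words of different motifs can share at most 1 base, and TTCGAA reads the same on both strands. A match describes the letters and does not show a factor at work. The windows of Birc5, Mad2l1, Pttg1, Nuf2 and Nusap1 held neither a CHR nor CCAAT.

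The promoters of 4 members show the range, from 180 bases before to 20 after the start, read along the gene's strand with CHR and CCAAT matches on either strand in capitals (TTCAAA and ATTGG are the words read from the other strand). Cdk1 and Top2a carry several copies of both motifs, Cdc20 is the most abundant of the 42 genes per kb, and Nuf2, with the largest log2 fold change, carries neither.
Cdk1, chr10:69352893-69353092, minus strand: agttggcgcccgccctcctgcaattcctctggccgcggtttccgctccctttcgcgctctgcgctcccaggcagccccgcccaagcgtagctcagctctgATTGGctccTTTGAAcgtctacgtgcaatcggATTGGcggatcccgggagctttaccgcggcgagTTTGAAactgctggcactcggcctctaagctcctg
Top2a, chr11:99024170-99024369, minus strand: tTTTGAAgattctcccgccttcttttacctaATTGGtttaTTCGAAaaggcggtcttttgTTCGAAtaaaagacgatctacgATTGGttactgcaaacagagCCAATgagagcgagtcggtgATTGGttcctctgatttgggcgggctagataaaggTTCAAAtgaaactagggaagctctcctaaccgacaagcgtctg
Cdc20, chr4:118437324-118437523, minus strand: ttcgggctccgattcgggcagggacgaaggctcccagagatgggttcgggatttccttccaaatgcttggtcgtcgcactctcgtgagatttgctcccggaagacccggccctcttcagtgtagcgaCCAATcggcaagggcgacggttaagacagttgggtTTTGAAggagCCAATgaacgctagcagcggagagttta
Nuf2, chr1:169531445-169531644, minus strand: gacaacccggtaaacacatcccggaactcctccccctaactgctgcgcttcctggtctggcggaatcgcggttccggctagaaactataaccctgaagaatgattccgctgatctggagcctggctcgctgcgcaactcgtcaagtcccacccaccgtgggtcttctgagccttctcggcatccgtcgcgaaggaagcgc
In these 200 bases Cdk1 held 4 matches, Top2a 8, Cdc20 3 and Nuf2 0. Relative to the start of transcription, the CHR nearest to it begins at position -15 in Cdk1, at -23 in Top2a and at -18 in Cdc20.

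A further 106 genes of the same processes were all tested, and again none passed the edgeR test with all libraries or with the GC offset. At an unadjusted p under 0.05, 8 were higher and 0 lower with all libraries, against 3.54% and 7.4% of all genes, and 28 were higher and 2 lower with the offset, against 10.7% and 6.94% of all genes. Their median log2 fold change was 0.21 with all libraries, 0.17 with the GC offset and 0.085 without wild-type 2. Values were above 0 in 86, 95 and 84 of the 106, against 50.1%, 58.6% and 48.2% of all genes. The 106 genes had a median GC content of 46.0%, and those shares of all genes are not matched for it. The genes of cohesin, which holds sister chromatids together until separase acts, and of its regulators, among them the release factor Wapl and the shugoshins, had log2 fold changes above 0 in 11 of 11 in each fit, with medians of 0.45, 0.26 and 0.14. Their median GC content was 41.9%. Of all tested genes of 34.8% to 43.3% GC content, 84.5% were above 0 with all libraries, and the medians were 0.29, 0.053 and 0.044. Other groups were mixed with all libraries, such as the anaphase-promoting complex (13 of 18 above 0) and the other mitotic kinesins (4 of 7). Rad21, the cohesin subunit that separase cuts, had 449 and 414 CPM in the knock-in libraries, against 363 and 269 CPM in the wild-type libraries, and values of 0.45, 0.34 and 0.24. Ska1, which couples kinetochores to microtubules with the NDC80 complex, had 35.1 and 31.0 CPM in the knock-in libraries, against 27.8 and 12.7 CPM in the wild-type libraries, with wild-type 2 far below the rest. The log2 fold change of Ska1 was 0.70 (SE 0.31, edgeR adjusted p = 0.455) and 0.69 with the GC offset (edgeR adjusted p = 0.129). Once wild-type 2 was left out it was 0.24 (edgeR adjusted p = 0.389). Cenpw, a protein of the inner centromere, had 25.4 and 26.7 CPM in the knock-in libraries, against 23.9 and 29.3 CPM in the wild-type libraries, and its log2 fold change of -0.031 was -0.60 with the GC offset, in the direction opposite to most of the list, and 0.11 without wild-type 2. Rad21, Mybl2 and Foxm1 are named after their values were seen. Of the transcription factors that act on mitotic promoters, Mybl2 (B-MYB) had 991 and 988 CPM in the knock-in libraries, against 865 and 1053 CPM in the wild-type libraries, and Foxm1 had 64.0 and 73.1 CPM in the knock-in libraries, against 72.5 and 80.1 CPM in the wild-type libraries. Both overlapped between the lines on CPM. The log2 fold changes of Mybl2 were 0.046, 0.27 and 0.18 in the 3 fits, and on GC-corrected CPM both its knock-in libraries lay above both wild-type libraries. Those of Foxm1 were -0.15, 0.041 and -0.10, and it overlapped on both scales.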

How the data were processed

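RNA was sequenced from 2 knock-in and 2 wild-type libraries. The deposited tables hold raw counts of reads per gene. Per the submitters' processing notes, Trim Galore, STAR 2.5.3a and GRCm38 (mm10) were used. Which gene annotation they used is not given in the sources used here. GENCODE M21 matched 54809 of 54838 gene identifiers and supplied symbols, GC content and exon lengths. The unstranded column was used, and the 4 summary rows (15.8% to 18.0% of reads) were left out. Reads that map to several places, such as to pseudogene copies, were not counted to genes.

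Genes were tested with the quasi-likelihood test of edgeR 4.0.16 (R 4.3.3) after TMM scaling and filterByExpr (minimum count 10), with genotype alone, over all 4 libraries, and Benjamini-Hochberg adjustment over 15191 genes at 0.05. Standard errors were taken as |log2 fold change|/sqrt(F). For the GC offset, a natural spline with 5 df on the GC content of the longest transcript was fitted to each library's difference in log2 CPM (prior count 2) from the average library. Alternatives were DESeq2 1.42.0 and its size factors, no low-count filter, each library left out, the replicate number as a block, and a GC and length offset. The scripts were tested on simulated data. P-values set the difference between the groups against the spread between libraries of a group, estimated with help from all genes. Since no other line of either genotype was sequenced, they do not cover the spread between lines.

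The members and gene lists were chosen with earlier results of these data known. Values by library were given for the most abundant member and the members of highest and lowest log2 fold change in each of 9 role groups, for the 2 further genes of largest change with the GC offset (Ska1 and Cenpw) and for Ep300. Others with values by library were added after their values were seen. Replicate numbers gave no sign of pairing: deviations of same-numbered libraries correlated at r = -0.176 over 8951 genes of at least 10 CPM.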

Additional observations from a re-analysis of the deposited data

How the results depend on the processing

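Calls over all genes depended strongly on the setting, and the cause was not tested. Against 1 gene higher and 9 lower with all libraries, 63 and 291 passed without the low-count filter, 6 and 80 with DESeq2, 50 and 130 with the GC offset, and 63 and 137 with the GC and length offset. The replicate block gave 46 and 151, with 1 further mitosis gene higher, and the GC offset with the replicate block 149 and 254, with 1 further gene higher (Ska1). A crossed replicate block, added after seeing the data because the libraries with the same number deviated in opposite directions, gave 175 and 334, with 2 members and 4 further genes higher. Apart from the crossed block, none of these settings called a member.

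Leaving out 1 library, with or without the GC offset, gave 1 to 2975 genes higher and 14 to 2040 lower, 0 to 24 members and 0 to 59 further genes higher, and 0 to 6 further genes lower. The 24 members came without wild-type 1, where 19% of all genes passed as higher, and with the GC offset added 8 did, against 6% of all genes. Without either knock-in library no member passed. The members' median ranged from 0.11 to 0.46.

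With the GC offset, the GC and length offset, and the GC offset with the replicate block, the sign turned for Ccnb1 (-0.031, -0.038 and -0.013), Cdc25b (0.11 in each), Aurkb (0.058, 0.052 and 0.061), Ncapg (-0.075, -0.045 and -0.071) and Ep300 (0.0074, 0.070 and 0.0045). It turned for Bub3 with the GC offset (-0.016) and without the filter (-0.014), and without the filter for Plk1 (-0.015) and Espl1 (-0.0084). Over the fits that left out 1 library, taken with and without the GC offset together, estimates lay on both sides of 0 for Ccna2 (-0.088 to 0.31), Ccnb1 (-0.24 to 0.23), Cdc25b (-0.11 to 0.17), Plk1 (-0.081 to 0.28), Aurkb (-0.22 to 0.18), Cdca8 (-0.053 to 0.15), Bub1 (-0.0086 to 0.86), Bub3 (-0.25 to 0.29), Mad2l1 (-0.0017 to 0.61), Cdc20 (-0.074 to 0.56), Espl1 (-0.063 to 0.27), Cenpf (-0.028 to 0.65), Kif20a (-0.013 to 0.24), Kif23 (-0.021 to 0.28), Ncapd2 (-0.045 to 0.24), Ncapg (-0.18 to 0.82), Cenpw (-1.10 to 0.11) and Ep300 (-0.21 to 0.10). For Cdc25b every such fit without the offset was below 0 and every one with it above 0. Of 752 single-gene values over 47 genes, 654 kept their sign and side of the threshold. With 2 libraries a group, no test for outlying libraries was made. The members' standard errors with all libraries ran from 0.14 to 0.27, against their median log2 fold change of 0.24.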
